A study of Mus musculus with 6 samples.

Results

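The genes described here encode 9 dual-specificity phosphatases (Dusp2, Dusp3, Dusp4, Dusp6, Dusp7, Dusp8, Dusp10, Dusp16 and Dusp22) and the kinase MAPKAP kinase 2 (Mapkapk2, MK2). They were chosen by gene symbol, with earlier results of these data known, and all 10 were found among the 38739 genes of the expression table. RNA sequencing was performed on peritoneal neutrophils of cGAS-/- mice, in which the gene of cyclic GMP-AMP synthase, a sensor of DNA in the cytosol, is knocked out. In 3 samples the cells received LPS (E. coli 026:B6, a ligand of TLR4) for 2 h, and in 3 untreated samples they received medium for the same time. Both groups carried the knockout, on a C57BL/6J background, and no wild-type RNA sample was compared. The labels give an LPS dose of 500 ng/mL, whereas the study's methods name a lower one. The mice were males of 8 weeks, and the neutrophils were elicited with thioglycolate and lavaged 2 h later without a sort. Nothing in the labels says that the 3 samples of a group came from separate mice, so the p-values measure the spread between these samples, which may be technical.

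MAP kinases are switched on when a MAP2 kinase phosphorylates both a threonine and a tyrosine of their activation loop. Dual-specificity MAP kinase phosphatases (MKPs) remove both phosphates and so switch the kinase off. The typical MKPs fall into nuclear enzymes, cytoplasmic enzymes that prefer ERK, and enzymes that prefer JNK and p38, whereas small atypical members lack the kinase-binding domain. In myeloid cells TLR4 engages all of these kinase branches through TAK1, several MKP genes are themselves early targets of the signal, and p38 acts on cytokine mRNA largely through MK2.

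Values are scaled TPM, a length-corrected transcript level for which the authors took the mean over a gene's transcripts and then rescaled each sample. Because a mean over transcripts depends on how many are annotated, the levels of single genes are compared between samples and not with each other. Where a percentile is given, it is the gene's place among the protein-coding genes above 0 in that sample, which numbered 10022 to 10252 untreated and 10644 to 11843 after LPS. Differences are LPS minus untreated of log2(scaled TPM + 1), so that a change of a low value appears smaller than its ratio. They were tested with limma over 23049 genes. A gene is said to have risen or fallen where it passed the limits of the study's methods, an unadjusted p under 0.01 with a log2 difference over 2, and the Benjamini-Hochberg adjusted p over all genes is given beside it.

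The libraries of both groups differed in more than these genes. Protein-coding genes held 21.62 to 28.97% of the summed value in untreated samples and 50.59 to 59.99% in LPS samples. The correlation of log2 values was 0.927 to 0.962 within the LPS group but 0.807 to 0.835 within the untreated group, close to the 0.774 to 0.801 between groups. Cgas was listed at 0.1802 to 0.3072 in untreated samples and at 0.0286 to 0.184 in LPS samples, which checks no label, since no wild-type sample was compared. Neutrophil markers summed to 9565 to 27130 against 14840 to 49720, with 11 of 12 above 0 in every sample and Elane at 0 in all. Most of each sum was S100a8 and S100a9, which overlapped between groups. Csf3r, Cxcr2 and Ltf were lower in every LPS sample, and no neutrophil marker was higher in every LPS sample. Cxcr2 passed the limits as lower (log2 difference -2.67; limma, adjusted p = 0.0944). Markers of macrophages and monocytes were higher in every LPS sample, with sums of 170 to 201.9 against 272.3 to 417.8 and 8 of 10 markers above 0 in every sample. Most of that sum was Cd68, at 157 to 179 against 229.9 to 381.5. The macrophage gene C1qb, a complement subunit, passed the limits as higher, with 2.85, 0.712 and 4.75 untreated and 23.95, 17.3 and 18.1 after LPS. B cell markers summed to 280.6 to 1093 against 262.3 to 796.4, with all 6 above 0 in every sample. The part of these cells in the values below was not tested, and in bulk RNA fewer cells of a type and less RNA per cell cannot be told apart.

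After LPS, Dusp4, Dusp16 and Mapkapk2 rose and Dusp7 fell, so that 4 of the 10 genes passed the limits. Of all genes tested 2.99% did so, 1.69% as higher and 1.31% as lower, and among the 6004 protein-coding genes with a mean of at least 1 the share was 5.66%. Mapkapk2 was the 1 gene with an adjusted p under 0.05 (limma, adjusted p = 0.0429), against 1.84% of all genes tested. It lost this call in all 6 fits that left out 1 sample, with adjusted p of 0.0502 to 0.169 by limma, and also with median centring (0.0509), with genes at 0 in every sample kept (0.0622) and with the replicate block (0.0859). In 5 of the 10 genes the groups did not overlap, with LPS above in 4 (Dusp2, Dusp4, Dusp16, Mapkapk2) and below in Dusp7. The same was true of 22.9% of all genes tested and of 34.6% of the protein-coding genes with a mean of at least 1. The median log2 difference of the 10 genes was 0.14, that of all genes tested was 0.01 and that of the protein-coding genes was 0.37. The fitted difference was above 0 in 7 of the 10 genes and below 0 in 3, beside 12200 of all 23049 genes tested above 0. Of the 7, Dusp8 and Dusp22 turned negative with quantile normalization, median centring and equal protein-coding sums. With every sample scaled to an equal sum over protein-coding genes, the median over genes with a mean of at least 1 moved from 0.13 to -0.22, and 2 of the 10 genes passed the limits, Dusp16 as higher and Dusp7 as lower.

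**Figure D1:**
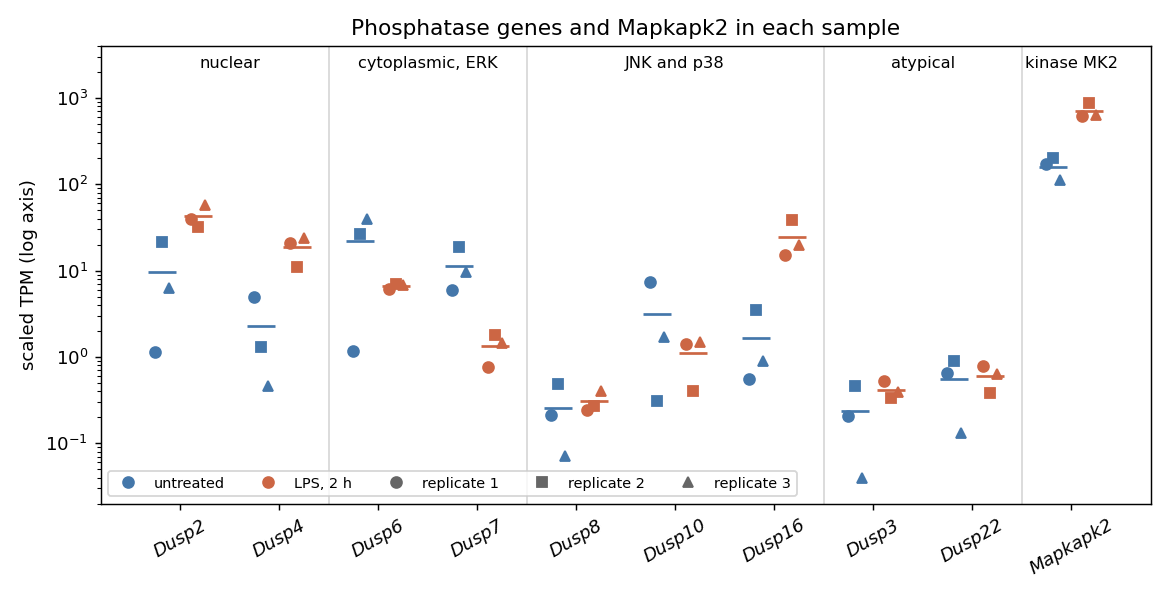
Scaled TPM on a log axis of the 9 phosphatase genes and Mapkapk2 in each of the 3 untreated samples (blue) and 3 LPS samples (orange), with the replicate number as the point shape and the group mean as a bar. Groups are apart for Dusp2, Dusp4, Dusp7, Dusp16 and Mapkapk2, and the untreated points of Dusp6 reach from 1.17 to 39.2 around LPS points of 6.10 to 7.08.

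The inducible nuclear MKPs were both higher in all LPS samples, and Dusp4 passed the limits. Dusp4 (MKP-2; chr8:35274442-35287048, plus strand, GRCm39), a nuclear phosphatase of ERK and JNK, was at 4.98, 1.32 and 0.464 untreated and at 20.98, 10.97 and 23.7 after LPS. The lowest LPS sample was thus above the highest untreated one. Its mean was 2.25 ± 2.40 (SD, n = 3) untreated and 18.6 ± 6.71 (SD, n = 3) after LPS, a ratio of 8.25. On the log2 scale the difference was 2.78 with a standard error of 0.61 and a 95% confidence interval of 1.29 to 4.26 (limma, adjusted p = 0.0838). The call was lost in 4 of the 6 fits that left out 1 sample, with log2 differences of 2.66 without untreated replicate 2, 2.33 without untreated replicate 3, 2.66 without LPS replicate 1 and 2.57 without LPS replicate 3.

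Dusp2 (PAC-1; chr2:127177957-127180296, plus strand), a nuclear phosphatase of ERK and p38 best known from activated leukocytes, was at 1.13, 21.7 and 6.21 untreated and at 39.7, 32.2 and 57.3 after LPS. The groups did not overlap, but the untreated samples spread over 19.1-fold and the LPS samples over 1.78-fold. The log2 difference of 2.61 had a standard error of 0.86 and did not pass the limits (limma, unadjusted p = 0.0225, adjusted p = 0.196). Without untreated replicate 2, the highest of its group, the log2 difference was 3.45 and passed them (limma, adjusted p = 0.0685). A non-coding gene on the other strand, Gm74572, holds 402 bases identical to Dusp2 transcripts in opposite orientation and was not analysed here. The nuclear members Dusp1 and Dusp5 were not analysed here.

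The cytoplasmic phosphatases of ERK differed from each other, with Dusp7 lower in every LPS sample and Dusp6 overlapping. Dusp7 (PYST2; chr9:106245143-106252923, plus strand) was at 5.91, 18.9 and 9.52 untreated and at 0.773, 1.79 and 1.46 after LPS. All LPS samples thus lay below all untreated samples. The means were 11.4 ± 6.71 and 1.34 ± 0.518 (SD, n = 3 each), 8.54-fold lower after LPS. The fitted log2 difference was -2.30 with a standard error of 0.47 and a 95% confidence interval of -3.45 to -1.15 (limma, adjusted p = 0.0736). It was -1.89 without untreated replicate 2, -2.11 without LPS replicate 1 and -2.35 without LPS replicate 3, and in these fits the limits were not passed. Its percentile among the protein-coding genes above 0 in the same sample was 77.9, 90.1 and 84.0 untreated and 43.6, 57.6 and 54.9 after LPS.

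Dusp6 (MKP-3; chr10:99086564-99103361, plus strand), the ERK phosphatase that is itself a common readout of ERK signalling, was at 1.17, 26.4 and 39.2 untreated and at 6.10, 7.08 and 6.80 after LPS. The LPS samples lay within 1.16-fold of each other, between untreated replicate 1 and the other untreated samples. This gave a log2 difference of -0.81 with a 95% confidence interval of -3.49 to 1.88 (limma, adjusted p = 0.699), an interval that holds large changes in either direction. Without untreated replicate 1 the log2 difference was -2.12 and passed the limits as lower (limma, adjusted p = 0.0563), so this sample decided the call. Gm56965, on the other strand, holds 685 bases identical to Dusp6 transcripts in opposite orientation and, like the third cytoplasmic member Dusp9, was not analysed here.

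The phosphatases of JNK and p38 held the largest difference of the 10 genes, in Dusp16, whereas Dusp8 and Dusp10 overlapped between groups. Dusp16 (MKP-7; chr6:134692431-134784241, minus strand) was at 0.547, 3.53 and 0.889 untreated and at 15.2, 38.5 and 19.8 after LPS. Again the lowest LPS sample was above the highest untreated one. The mean was 1.65 ± 1.63 (SD, n = 3) untreated and 24.5 ± 12.3 (SD, n = 3) after LPS, a ratio of 14.8. The log2 difference was 3.32 with a standard error of 0.56 and a 95% confidence interval of 1.96 to 4.68 (limma, adjusted p = 0.0508). It was past the limits in all 16 alternative settings, each sample left out in turn included, with log2 differences of 2.10 to 4.31 and adjusted p of 0.00454 to 0.186. Its percentile among protein-coding genes above 0 went from 39.8, 71.8 and 47.1 untreated to 88.4, 93.4 and 90.9 after LPS. In both groups replicate 2 was the highest, as it was for the summed neutrophil markers (27130 and 49720), mostly S100a8 and S100a9. The part of these markers in the value of Dusp16 was not tested.

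A long non-coding RNA on the other strand, Gm36328 (chr6:134730625-134797653, plus strand), overlaps Dusp16, and 227 bases of their transcripts were 99.6% identical in opposite orientation. It was listed at 0 in the 3 untreated samples and at 3.38, 9.74 and 1.13 after LPS. The library kit keeps strand, but the strand setting of the quantification is not given in the sources used here, so the values of Dusp16 and Gm36328 are uncertain to the extent that reads were shared.

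Dusp10 (MKP-5; chr1:183745499-183807842, plus strand) was at 7.42, 0.309 and 1.71 untreated and at 1.40, 0.406 and 1.48 after LPS. The groups overlapped, and untreated replicate 1 stood above the other 5 samples. The log2 difference of -0.61 had a 95% confidence interval of -2.37 to 1.15 (limma, adjusted p = 0.654) and was 0.11 without untreated replicate 1. In that sample the B cell genes Cd79a (457) and Cd22 (8.01) were also at their highest of the 6 samples. On the other strand of Dusp10, 1700056E22Rik holds 629 identical bases in opposite orientation and was at 0.654, 0 and 0 untreated and at 0.154, 0 and 0 after LPS. Dusp8 (chr7:141633226-141649580, minus strand) had low values of 0.213, 0.492 and 0.0706 untreated and 0.241, 0.270 and 0.402 after LPS. Its log2 difference was 0.06 with a 95% confidence interval of -0.33 to 0.46 (limma, adjusted p = 0.844).

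The promoter stretches of Dusp16 and Dusp8 are shown because they share a run of letters close to the start of both genes. Dusp16 passed the limits. Dusp8, at most 0.492 in any sample, could not pass them on the log2 scale used, so the pair is no contrast of response. They are the 150 bases before the annotated start in RefSeq (GRCm38.p6, which is not the build of the table), at chr6:134792629-134792778 and chr7:142095285-142095434, both on the minus strand. Capitals mark the shared run in both and, in Dusp8, 2 matches to the cyclic AMP response element (CRE, TGACGTCA).
Dusp16: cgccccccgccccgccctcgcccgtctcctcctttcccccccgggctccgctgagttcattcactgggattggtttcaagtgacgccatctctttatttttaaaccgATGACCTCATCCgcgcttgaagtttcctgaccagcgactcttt
Dusp8: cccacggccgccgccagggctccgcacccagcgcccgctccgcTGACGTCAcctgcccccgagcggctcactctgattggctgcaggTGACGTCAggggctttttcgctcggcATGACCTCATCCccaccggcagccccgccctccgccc
The shared run of 12 bases begins 43 bases before the start of Dusp16 and 37 bases before that of Dusp8. It was noticed after the sequences were seen, among 36 pairs of promoters compared, and on either strand it was in 6 of 32851 RefSeq promoters (0.0183%). Longer runs were shared by other pairs, 15 bases by Dusp16 and Dusp7 (247 and 76 bases before the start, in 2 promoters) and 13 bases by Dusp3 and Dusp8 (20 bases before both starts, in 10 promoters).

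A search of the 250 bases before the start of each gene covered 9 of the 10 genes, Dusp4 having no entry. Both strands were searched for the CRE, the AP-1 site (TGANTCA), the NF-kB consensus and the CArG box of serum response factor, which were in 1.55, 6.75, 7.25 and 1.47% of all promoters. The promoters of Dusp2, Dusp3, Dusp6, Dusp7, Dusp10, Dusp16 and Mapkapk2 held no match to any of the 4. Dusp8 held the 2 CRE matches, 107 and 63 bases before the start, and Dusp22 held 2 overlapping NF-kB matches. A match is a description of the letters, and its absence from this window says nothing of whether the factor acts on the gene. All 9 promoters were richer in G and C than the median promoter (52.4%), from 56.4% in Dusp6 to 77.6% in Dusp22, and held 9 to 38 CG dinucleotides against a median of 6. Among the genes past the limits the contrast was widest between Dusp7, at 77.2% with 34 CG, and Mapkapk2, at 60.4% with 9. Their 150 bases before the start, at chr9:106368482-106368631 on the plus strand and chr1:131097844-131097993 on the minus strand of GRCm38.p6, show this, and no motif is marked.
Dusp7: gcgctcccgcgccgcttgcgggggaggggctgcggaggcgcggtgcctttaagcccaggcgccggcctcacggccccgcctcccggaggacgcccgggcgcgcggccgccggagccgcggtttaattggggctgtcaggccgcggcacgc
Mapkapk2: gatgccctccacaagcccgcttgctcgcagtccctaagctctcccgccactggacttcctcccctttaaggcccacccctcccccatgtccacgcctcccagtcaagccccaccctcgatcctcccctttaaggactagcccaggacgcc

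The atypical phosphatases Dusp3 and Dusp22 had low values that overlapped between the groups. Dusp3 (VHR; chr11:101861969-101877839, minus strand), which acts on ERK and JNK without a kinase-binding domain, was at 0.205, 0.456 and 0.0397 untreated and at 0.531, 0.330 and 0.393 after LPS. The log2 difference was 0.21 with a 95% confidence interval of -0.22 to 0.64 (limma, adjusted p = 0.551). Gm20659, on the other strand, shares 397 bases with it in opposite orientation and was at 0, 0.266 and 1.00 untreated and at 0.00795, 0 and 1.31 after LPS. Dusp22 (JKAP; chr13:30843872-30895218, plus strand), known as a modulator of JNK signalling and as a phosphatase of the T cell kinase Lck, was at 0.649, 0.897 and 0.133 untreated and at 0.792, 0.378 and 0.627 after LPS. The log2 difference was 0.06 with a 95% confidence interval of -0.66 to 0.78 (limma, adjusted p = 0.925). Transcripts of 35 other genes hold a stretch of at least 150 bases that is at least 95% identical to a Dusp22 transcript, so its low values are uncertain. Dusp3, Dusp8 and Dusp22 were below 1 in every sample, where the log2(scaled TPM + 1) scale allows a difference of at most 1, so the limits could not be passed.

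Mapkapk2 had the smallest standard error of the genes that rose. MK2 (chr1:130981423-131025593, minus strand) is phosphorylated by p38 and in turn phosphorylates tristetraprolin, which lets AU-rich mRNAs such as that of Tnf persist. Mapkapk2 was at 169.9, 198.8 and 112.5 untreated and at 610.1, 879.5 and 639.6 after LPS. The groups did not overlap, and the untreated samples spread over 1.77-fold and the LPS samples over 1.44-fold. The means were 160.4 ± 43.9 and 709.7 ± 147.8 (SD, n = 3 each), a ratio of 4.43. Its log2 difference was 2.16 with a standard error of 0.34 and a 95% confidence interval of 1.34 to 2.98. Its percentile among protein-coding genes above 0 was 98.1 to 98.7 untreated and 99.6 in each LPS sample. The difference was 1.92 without untreated replicate 3, 1.99 without LPS replicate 2 and 1.67 with equal protein-coding sums, each below the limit of 2.

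**Figure D2:**
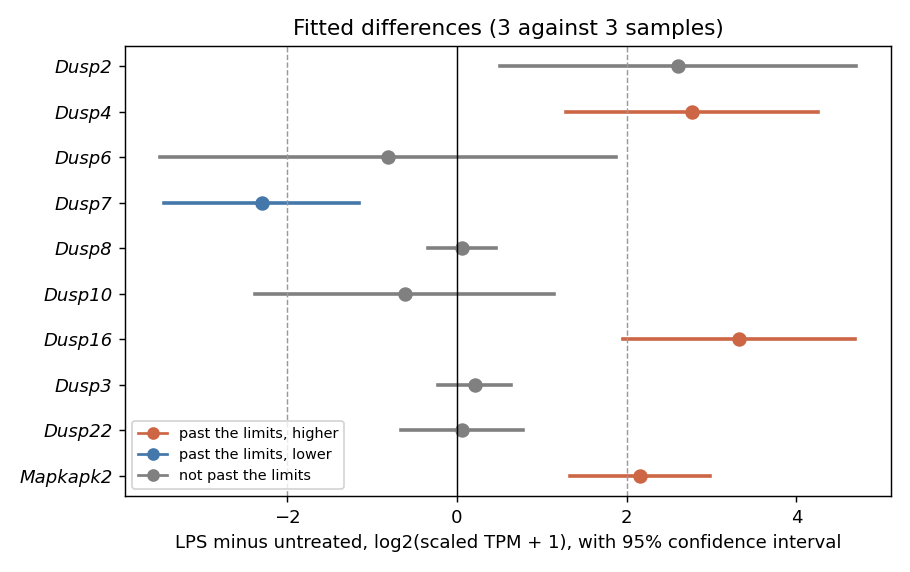
Fitted log2 difference, LPS minus untreated, of each gene (point) with its 95% confidence interval (line), from 3 against 3 samples, with dashed lines at -2 and 2. Dusp16 (3.32), Dusp4 (2.78) and Mapkapk2 (2.16) are past the limits as higher and Dusp7 (-2.30) as lower, and the interval of Dusp6 is the widest.

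Ratios between genes of the same sample do not depend on how the samples were scaled. The pairs join genes already seen to differ, so the ratios are a description with no test. The ratio of Dusp16 to Dusp7 was 0.0926, 0.187 and 0.0934 untreated and 19.6, 21.5 and 13.6 after LPS. The ratio of Mapkapk2 to Mapkapk3, its closest relative and a substrate of the same p38 kinases, was 15.1, 41.1 and 6.63 untreated and 156.5, 136.5 and 167.5 after LPS. Mapkapk3 itself was at 11.2, 4.84 and 17.0 untreated and at 3.90, 6.44 and 3.82 after LPS, with a log2 difference of -0.96 (limma, adjusted p = 0.383). The ratios of Dusp4 and Dusp2 to Dusp7 did not overlap either, at 0.0487 to 0.842 against 6.14 to 27.1 and at 0.192 to 1.15 against 18.0 to 51.3. The other ratios computed overlapped. That of Dusp16 to Dusp10 was 0.0738, 11.4 and 0.521 untreated and 10.8, 94.7 and 13.4 after LPS. That of Dusp7 to Dusp6 was 5.05, 0.715 and 0.243 untreated and 0.127, 0.253 and 0.215 after LPS.

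**Figure D3:**
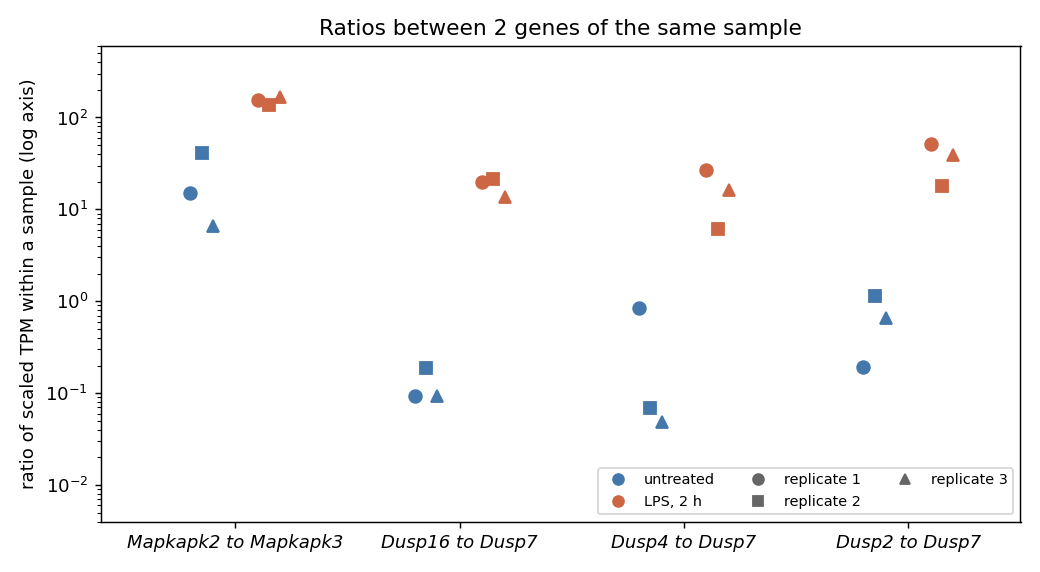
Ratio of scaled TPM between pairs of genes within each sample, on a log axis, for 3 untreated samples (blue) and 3 LPS samples (orange), with the replicate number as the point shape. In these 4 of the 6 ratios computed all LPS points lie above all untreated points, as for Dusp16 to Dusp7 with 0.0926 to 0.187 against 13.6 to 21.5.

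All 10 genes varied more among the untreated samples than among the LPS samples on the log2 scale. The same was true of 79.5% of the 9403 genes with a mean of at least 1. The spread was widest for Dusp6, at 33.5-fold untreated and 1.16-fold after LPS, and for Dusp10, at 24.0-fold and 3.64-fold.

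In the rest of the MAP kinase route Map3k7 and Junb passed the limits. Of 84 other genes tested from lists of kinases, phosphatases, scaffolds and targets, these 2 rose and 0 fell, beside 1.69% and 1.31% of all genes tested. At an unadjusted p under 0.05 by limma there were 8 of the 84, beside 3905 of all 23049 genes tested, and the median log2 difference was 0.30. Groups did not overlap in 15, with LPS above in 13 and below in 2 of the 84, beside the 22.9% of all genes tested. Map3k7 encodes TAK1, the kinase that joins TLR4 to the JNK, p38 and NF-kB routes. It was at 0.249, 1.19 and 1.07 untreated and at 7.54, 7.55 and 7.45 after LPS, with a log2 difference of 2.25 (limma, adjusted p = 0.0395). Junb, an AP-1 subunit, was at 64.2, 92.6 and 55.1 untreated and at 292.1, 553.4 and 408.8 after LPS, with a log2 difference of 2.53 (limma, adjusted p = 0.0366). For both genes every LPS sample was above every untreated sample.

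Of the MAP kinases, 5 of 13 listed were tested and 0 passed the limits, with values from 1.11 for Mapk7 (ERK5) to -0.71 for Mapk3 (ERK1). All 7 MAP2 kinases were tested and 0 passed. Map2k3, which activates p38, had the highest log2 difference of these at 1.54, with 15.6, 9.10 and 17.2 untreated and 32.6, 58.1 and 37.2 after LPS (limma, adjusted p = 0.107). Its groups did not overlap. The lowest of the MAP2 kinases was Map2k5, which activates ERK5, at -0.86. Of 15 MAP3 kinases and TAK1 partners tested, Map3k7 passed, and the lowest value was -1.24 for Map3k3.

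Of 7 kinases downstream of the MAP kinases, Mapkapk2 alone passed the limits, whereas Rps6ka1 (RSK1), at 0.86, and Mapkapk3 had the highest and lowest values of the others. Of 6 MK2 substrates tested 0 passed, with Ripk1, a kinase of cell death signalling, highest at 1.30 and Zfp36l1, a relative of tristetraprolin, lowest at -0.21. Zfp36, the gene of tristetraprolin, was at 109.1, 224.9 and 43.1 untreated and at 142.5, 410.6 and 166.2 after LPS, overlapping between groups (log2 difference 1.06; limma, adjusted p = 0.523). Of 16 scaffolds and other brakes 0 passed. The highest was Lamtor3, the MP1 scaffold of MEK and ERK, at 0.969, 0.165 and 1.46 untreated and 6.26, 6.11 and 4.36 after LPS (log2 difference 1.87; limma, adjusted p = 0.0765), and the lowest was Ptpn5 at -0.26. Ksr1, another ERK scaffold named after its values were seen, had a log2 difference of 1.82 with groups that did not overlap (limma, adjusted p = 0.102).

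Of 16 target transcription factors and early genes tested, Junb passed. Fos, its AP-1 partner and a classic ERK target, had the lowest value of that list, with 0.292, 10.1 and 8.70 untreated and 1.46, 1.97 and 1.496 after LPS (log2 difference -0.98; limma, adjusted p = 0.555). As with Dusp6, untreated replicate 1 was below all LPS samples and the other untreated samples were above them. Of the 15 atypical phosphatases tested, Dusp3 and Dusp22 included, 0 passed, with Dusp12 highest at 0.93 and Ssh2, a cofilin phosphatase, lowest at -0.46. Dusp15, Dusp26 and Dusp27 were listed at 0 in every sample.

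**Figure D4:**
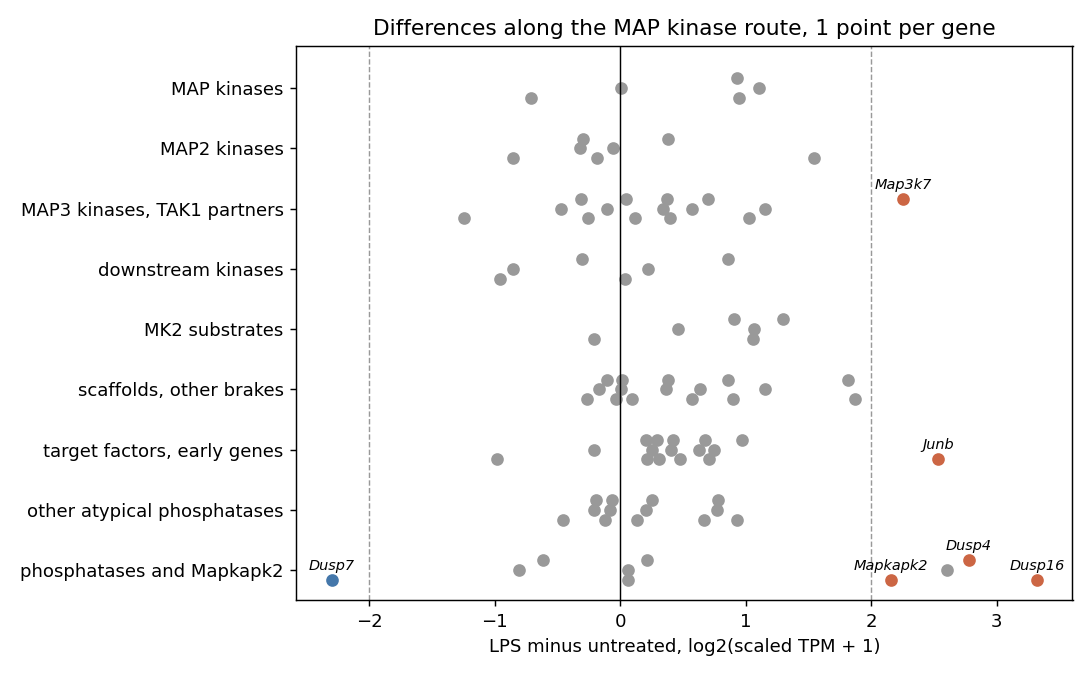
Fitted log2 difference, LPS minus untreated, of 84 other genes of the MAP kinase route by list and of the 9 phosphatases with Mapkapk2 in the bottom line, 1 point per gene, with dashed lines at -2 and 2. Genes past the limits are named, with Map3k7 (2.25) and Junb (2.53) above and Dusp4, Dusp7, Dusp16 and Mapkapk2 in the bottom line.

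**Figure D5:**
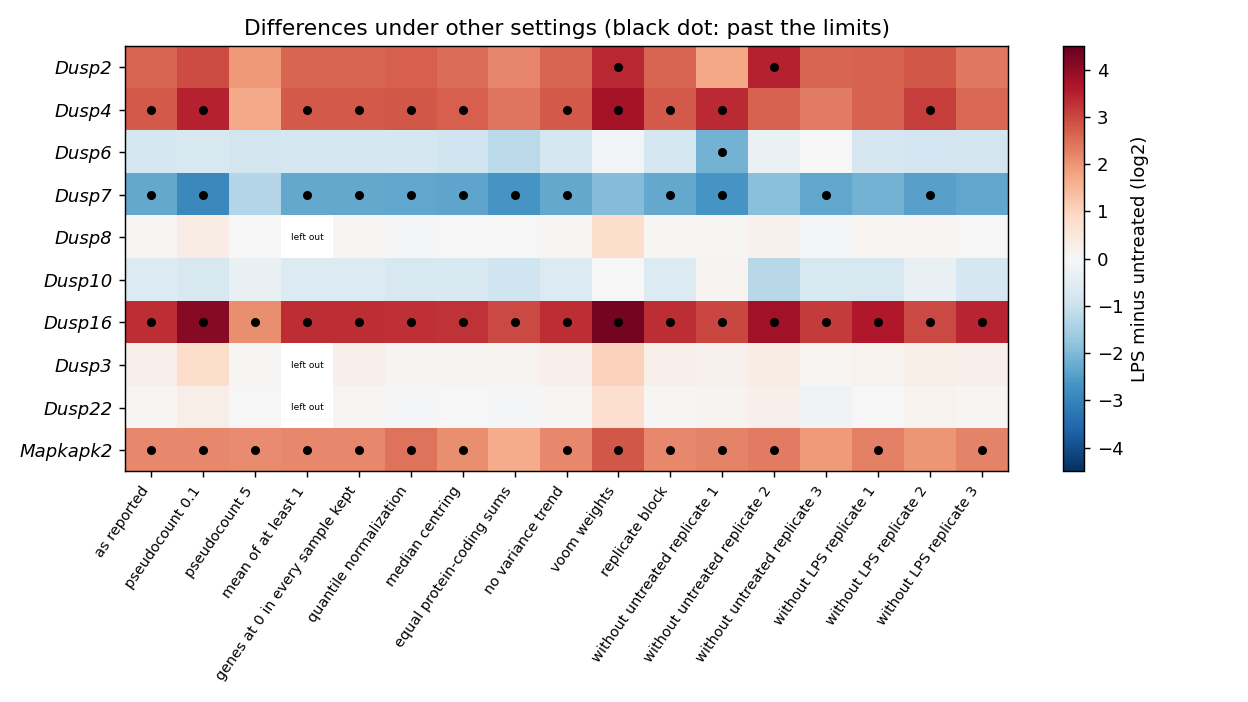
Fitted log2 difference of each gene (colour) under the reported setting and 16 alternatives, where a black dot marks a gene past the limits and a gene with a mean under 1 is left out of the setting that requires it. Dusp16 is past the limits in every column, whereas the dots of Dusp4, Dusp7 and Mapkapk2 are missing from 6, 5 and 3 columns.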

How the data were processed

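Peritoneal neutrophils were sequenced as 3 untreated and 3 LPS samples from a stranded mRNA kit with paired reads. The labels name a HiSeq sequencer and the study's methods a NextSeq. Per the labels and the study's methods, reads were trimmed with fastp, aligned with STAR to GRCm39 and quantified with Kallisto, and edgeR was used for normalization (versions and annotation release are not given in the sources used here). The submitters' processing notes also name mm10. The deposited values are TPM that the authors averaged over the transcripts of each gene and divided by a factor per sample. The averaging was read from the values: of 1398 long values of untreated replicate 3, 81.4% became short numbers when multiplied by a whole number of at most 60. Sequencing depth is unknown, so no counting interval is given, and 0 columns were left without a sample.

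Genes above 0 in at least 1 sample (23049) were fitted in R 4.3.3 with limma 3.58.1 (trend, moderated statistics, two-sided) on log2(value + 1), after the design with no replicate block, and p-values were adjusted by Benjamini-Hochberg over all of them. The study ran limma-voom, and its limits were kept. The fit was tested on simulated data, in which only genes of higher level were changed and both groups had the same spread. The simulation thus covers neither changes of low values nor the wider spread of the untreated samples. Coordinates are GENCODE M39 on GRCm39, matched by symbol, and near-identical transcripts were sought with blastn 2.17.0. Promoters are RefSeq sequences on GRCm38.p6. Ratios were computed in Python 3.11.15.

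The genes, pathway lists, markers and tests were chosen with earlier results of these data known. Besides the 10 genes, the text names every listed pathway gene past the limits or with an adjusted p under 0.05. In lists with fewer than 2 of these, it names the highest and lowest log2 difference. Also named are genes antisense to the 10 (the 35 near-identical to Dusp22 are given as a count), Cgas, and, of the 3 nearest profiles to the gene with the largest difference, those reported here, since 1 of them is not reported. Alternatives were other pseudocounts (0.1 and 5), filters, scalings, voom weights, no variance trend, the replicate block and each sample left out.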

Additional observations from a re-analysis of the deposited data

How the results depend on the processing

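Of the 10 genes, 4 passed the limits, and this count was 2 with a pseudocount of 5, 2 with equal protein-coding sums and 2 to 5 when 1 sample was left out. The count with an adjusted p under 0.05 was 1, and it was 4 with a mean of at least 1, 0 with genes at 0 in every sample kept, 3 with equal protein-coding sums, 2 with no variance trend, 6 with voom weights, 0 with the replicate block and 0 to 1 when 1 sample was left out, the 1 being Dusp16 without untreated replicate 2 (limma, adjusted p = 0.0389) and not Mapkapk2. The median log2 difference of 0.14 was 0.58 with a pseudocount of 0.1, 2.16 with a mean of at least 1, where 7 genes were left, and 0.90 with voom weights, which moved the median of all genes to 0.67. Left-out samples gave 0.04 to 0.28. The 2 pathway genes past the limits became 4 with a pseudocount of 0.1, 1 with a pseudocount of 5, 1 with equal protein-coding sums, 6 with voom weights, 5 with a log2 limit of 1 and 1 to 3 with a sample left out. Non-overlapping genes numbered 5 to 8 with a sample left out, 8 without untreated replicate 2. Smaller groups separate more easily, and the share over all genes was not computed for these fits. These counts are therefore not read as a result about the 10 genes. The sign of 3 genes that did not pass the limits changed in some settings. Dusp8 became -0.0367 with quantile normalization, -0.0130 with median centring and -0.0174 with equal protein-coding sums, and was -0.0462 to 0.193 with a sample left out. Dusp22 became -0.0694, -0.0161 and -0.0746 in the same 3 scalings and was -0.154 to 0.218 with a sample left out. Dusp10 was -1.23 to 0.11 with a sample left out. The causes were not tested.

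Over all genes the limits called 690, against 1349 with a pseudocount of 0.1, 297 with 5 and 1729 with voom weights. Higher calls were 56.4% of these and 43.4% with a pseudocount of 5, 29.8% with equal protein-coding sums and 89.8% with voom weights. Adjusted calls numbered 424, and 1040 with a mean of at least 1, 1298 with no variance trend, 9393 with voom weights and 11 to 469 with a sample left out. The labels do not say whether the replicate numbers mark pairs, and the reported fit did not pair them. Same-numbered samples deviated together with correlations of 0.102, 0.22 and 0.0925 over 9403 genes. Each sample correlated best with its own number, so a pairing remains possible. With the replicate block 16 genes had an adjusted p under 0.05 and Mapkapk2 had 0.0859 by limma, with the limits passed by the same number of genes. Depth is unknown and limits the genes with values below 1.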

Other observations

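Genes whose profile over the 6 samples lay near that of Dusp16, which had the largest difference of the 10 genes, were sought by the Euclidean distance of log2(scaled TPM + 1) values centred on the untreated mean, over 9402 genes with a mean of at least 1. Among the nearest was Dgat2, an enzyme of triglyceride synthesis, at a distance of 0.575, with 0.226, 2.62 and 0.379 untreated and 9.07, 25.4 and 20.6 after LPS. Another was 4933408N05Rik at 0.73, with 0, 1.11 and 0.248 untreated and 8.495, 14.5 and 9.38 after LPS. In both, as in Dusp16, replicate 2 was the highest of both groups, a likeness that the choice by distance to Dusp16 favours.

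Replicate 2 of each group was highest in the neutrophil genes S100a9 (16150 and 28390) and S100a8 (8405 and 19850) and lowest in the B cell gene Cd79a (27.4 and 36.6). Untreated replicate 1 was the lowest untreated sample for Dusp2 (1.13), Dusp6 (1.17), Fos (0.292), Mapk6 (5.24) and the MK2 substrate gene Hnrnpa0 (10.6), whose other untreated values were 240.7 and 322.4. These genes were named after their values were seen, and the part of cell content or RNA quality in them was not tested. Of the receptors that mark neutrophils, Cxcr2 was at 39.4, 119.9 and 100.2 untreated and at 7.10, 23.6 and 8.70 after LPS, groups that did not overlap, in the same samples in which Dusp16 and Mapkapk2 were higher.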
